A study of Mus musculus with 16 samples.

Results

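The 7 slow muscle fibre genes described here were followed through skin wounds of normal and diabetic mice, 1 array at a time. They are Myh7, Myl2, Myl3, Tnnt1, Tnni1, Tnnc1 and Tpm3, and every probe of the array whose transcript identifier is assigned to 1 of them by RefSeq was taken, which gave 9 probes for the 7 genes. The arrays hold 39429 probes, of which 27427 carried 1 of 20832 gene symbols. The genes were chosen because their values on these same arrays were already known to vary, so their levels and differences are described here without a test.

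The wounds came from female mice with 4 mm full-thickness punches through the dorsal skin, and the tissue was a homogenate of the wound with the intact skin around it. The WT group was C57BL/6J, 10 to 12 weeks old, and untreated. The db/db group carried Lepr db/db, a mutation of the leptin receptor that causes obesity and type 2 diabetes, on C57BLKS/J at 10 weeks, and was untreated, so strain and diabetes cannot be told apart. The db/db + estrogen group was the same strain with estradiol benzoate at 0.75 µg/g/day in sesame oil applied to the wound daily, and the db/db + vehicle group received sesame oil alone. Each group had 2 arrays labelled day 7 and 2 labelled day 14 after wounding, 16 arrays in all. The sources used here differ on which of the days an array belongs to, so each day given is that of the sample label. They do not state whether 1 array is 1 mouse. The p-values therefore measure only the spread between the 2 arrays within groups, pooled over all 8 groups, which may be technical.

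Skeletal muscle fibres contract by the sliding of myosin thick filaments along actin thin filaments, and each fibre type builds these filaments from its own protein isoforms. Slow, fatigue-resistant fibres use the beta myosin heavy chain Myh7 with the light chains Myl2 and Myl3, and the same 3 proteins are used by the heart. On the thin filament, slow fibres carry the troponin subunits Tnnt1, Tnni1 and Tnnc1 and a tropomyosin from Tpm3. Mouse back skin is underlain by the panniculus carnosus, a thin sheet of mainly fast-twitch muscle, which the punch cut through. In a homogenate, fewer fibres of a type and less RNA per fibre cannot be told apart.

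The upstream sequences are shown for genes whose probes moved together over the arrays (Myh7, Myl3), for a pair with a smaller range (Tnnt1, Tnnc1), and for both listed starts of Tpm3, whose probes differed among themselves. Each is the 250 bases before a transcription start listed by RefSeq on GRCm38.p6, the most upstream start except for the second of Tpm3, read 5′ to 3′ along the gene. Capitals mark matches, on either strand, to the E-box CANNTG, the MCAT element CATTCC, the MEF2 core TAAAAATA or the TATA motif TATAAA. No probe or array measured binding at these sequences. Myh7 lies at chr14:54994627-54994876 on the minus strand, Myl3 at chr9:110763428-110763677 on the plus strand, Tnnt1 at chr7:4515976-4516225 on the minus strand and Tnnc1 at chr14:31208062-31208311 on the plus strand. The starts of Tpm3 are at chr3:90072401-90072650 and chr3:90079271-90079520, both on the plus strand.
Myh7: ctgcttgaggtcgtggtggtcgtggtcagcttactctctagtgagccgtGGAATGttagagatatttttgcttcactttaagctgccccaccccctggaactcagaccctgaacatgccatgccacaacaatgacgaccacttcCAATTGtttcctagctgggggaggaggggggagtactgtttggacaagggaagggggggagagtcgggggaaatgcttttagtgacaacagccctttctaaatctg
Myl3: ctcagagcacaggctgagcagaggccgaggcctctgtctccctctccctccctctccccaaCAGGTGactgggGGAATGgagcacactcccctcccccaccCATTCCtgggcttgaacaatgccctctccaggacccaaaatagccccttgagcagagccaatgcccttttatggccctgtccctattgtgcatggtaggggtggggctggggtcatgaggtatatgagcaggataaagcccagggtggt
Tnnt1: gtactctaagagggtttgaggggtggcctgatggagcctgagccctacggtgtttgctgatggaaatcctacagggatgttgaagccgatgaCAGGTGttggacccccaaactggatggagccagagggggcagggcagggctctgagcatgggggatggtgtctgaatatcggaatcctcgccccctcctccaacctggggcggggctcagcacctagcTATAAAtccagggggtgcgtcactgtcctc
Tnnc1: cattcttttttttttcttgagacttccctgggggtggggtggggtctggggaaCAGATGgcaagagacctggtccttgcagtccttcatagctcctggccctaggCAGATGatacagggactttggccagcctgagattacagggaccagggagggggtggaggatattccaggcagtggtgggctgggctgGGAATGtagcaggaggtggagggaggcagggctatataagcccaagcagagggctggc
Tpm3, first start: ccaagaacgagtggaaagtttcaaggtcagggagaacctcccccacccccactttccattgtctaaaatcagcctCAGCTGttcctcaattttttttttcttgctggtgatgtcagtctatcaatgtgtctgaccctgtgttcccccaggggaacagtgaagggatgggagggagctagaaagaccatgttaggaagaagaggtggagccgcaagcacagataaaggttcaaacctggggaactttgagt
Tpm3, second start: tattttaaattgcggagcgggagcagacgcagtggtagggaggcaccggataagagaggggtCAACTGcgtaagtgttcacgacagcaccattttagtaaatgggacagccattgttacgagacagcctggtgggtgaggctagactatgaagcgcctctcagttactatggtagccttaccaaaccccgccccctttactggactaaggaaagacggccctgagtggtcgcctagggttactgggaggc

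An E-box was found before the most upstream start of 7 of the 7 genes, and in 66.2% of the 32851 promoters searched over the same 250 bases. The MCAT letters, a motif bound by TEAD factors, were found in 3 of the 7, Myh7, Myl3 and Tnnc1, against 12.6% of all promoters. The MEF2 core was found in Tnni1 alone, against 2.45% of all promoters, and the TATA letters in Tnnt1 alone, at position -30 from the start, against 12.4%. The E-box reads as an E-box on both strands, and the other motifs have different letters on each strand. These matches describe the letters of each window.

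Levels are given as the log2 of the processed signal minus the log2 of the 75th percentile of the array, so 0 is the 75th percentile and 1 unit is a 2-fold difference. Levels are compared between arrays for 1 probe at a time, never between probes. The 75th percentile itself was 1091 to 2548 intensity units, 70.1% to 79.0% of probes were well above background, and no spot was saturated. Arrays labelled day 7 lay on 2 slides that each held 1 array of every group. Of the slides labelled day 14, 1 held both db/db arrays with 1 estrogen and 1 vehicle array, and the other held both WT arrays with the remaining estrogen and vehicle arrays. All arrays labelled day 7 were scanned on 1 date and all labelled day 14 on another. Differences between the labelled days therefore cannot be told apart from those between scan dates.

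Myh7, the slow myosin heavy chain, was high on 6 arrays and low on 10, with nothing between -1.39 and 2.26. On day 7 its log2 level was -4.25 and -1.39 in WT, 4.48 and 2.26 in db/db, -4.70 and -3.88 in db/db + estrogen, and 5.09 and -3.69 in db/db + vehicle, for replicates 1 and 2. By day 14 it was -4.73 and -3.76 in WT, 5.65 and 4.67 in db/db, -4.37 and 5.84 in db/db + estrogen, and -4.47 and -4.14 in db/db + vehicle. All 4 untreated db/db arrays were high and all 4 WT arrays were low, and 1 group of treated mice on each day was split between its replicates. The highest and lowest arrays differed 1523-fold, and the probe was well above background on all 16.

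**Figure D1:**
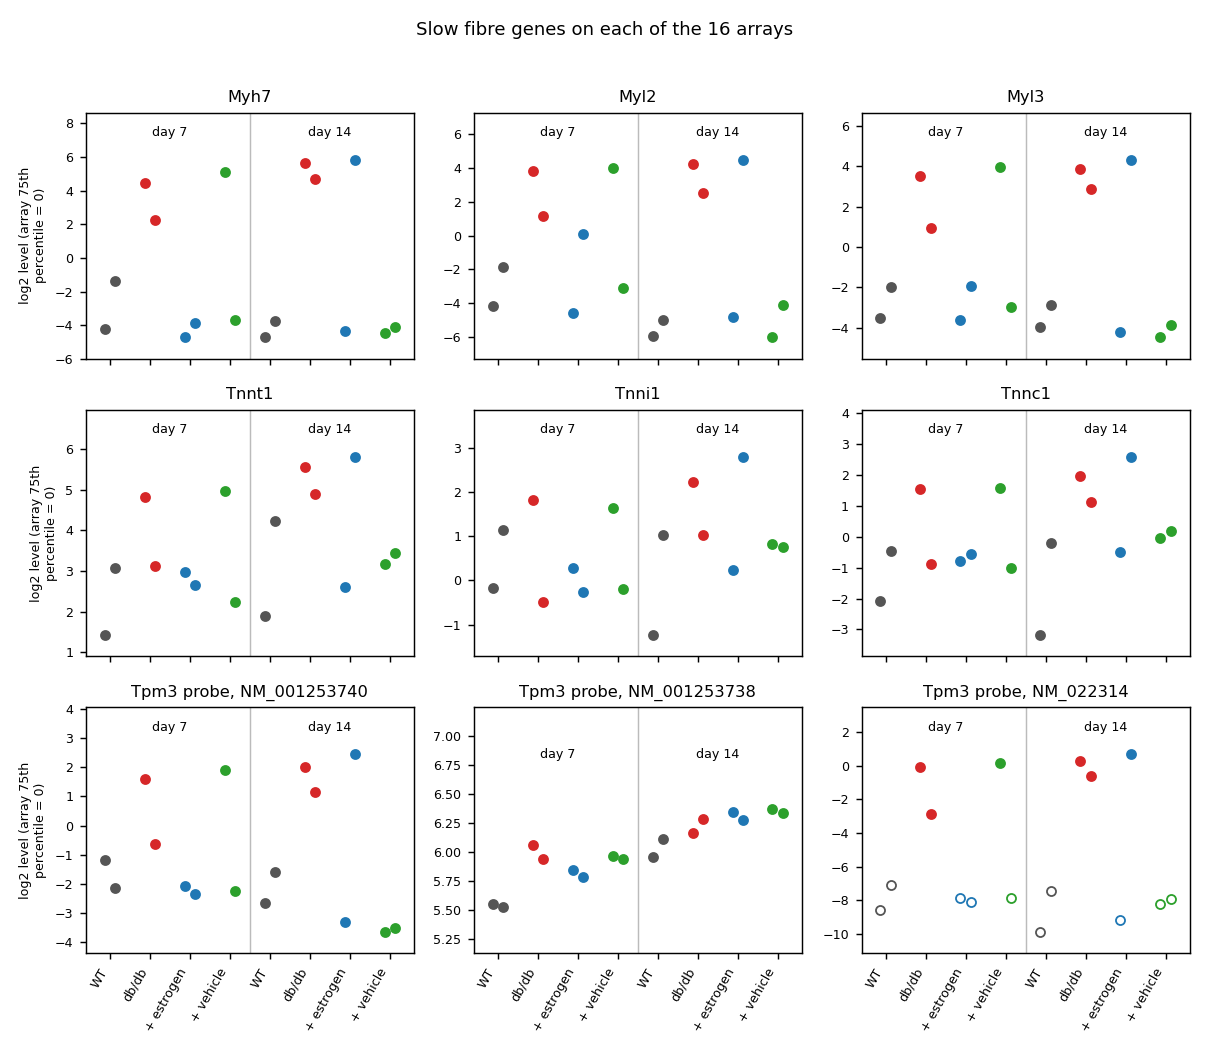
Log2 level of the 9 probes of the 7 slow fibre genes on each of the 16 arrays, relative to the array's 75th percentile (y axes differ between panels). Each point is 1 array, with replicate 1 left of replicate 2, grouped by treatment (x axis) and labelled day, and open points are not well above background. Myh7, Myl3 and the Tpm3 probe of NM_022314 are high on the same 6 arrays, and the Tpm3 probe of NM_001253738 stays between 5.52 and 6.37.

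The split groups set the size of the replicate error. Within db/db + vehicle on day 7 the 2 arrays differed by 8.78 in the log2 level of Myh7, a 439-fold difference, and within db/db + estrogen on day 14 by 10.21, a 1187-fold difference. In the other 6 groups the replicates differed by 0.33 to 2.86. The difference inside the estrogen group of day 14 was larger than the largest difference between group means, -9.46.

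The light chains of the slow myosin moved with their heavy chain. Myl2, the regulatory light chain, was -4.17 and -1.83 in WT, 3.80 and 1.16 in db/db, -4.55 and 0.08 in db/db + estrogen, and 4.03 and -3.07 in db/db + vehicle on day 7. Its day 14 levels were -5.96 and -4.97 in WT, 4.21 and 2.52 in db/db, -4.80 and 4.50 in db/db + estrogen, and -6.02 and -4.11 in db/db + vehicle. The same 6 arrays were highest, and replicate 2 of db/db + estrogen on day 7 lay nearer to them than to the rest. On that array Myh7 was at -3.88, among the low arrays.

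Myl3, the essential light chain of slow fibres, was -3.53 and -2.01 in WT, 3.53 and 0.96 in db/db, -3.60 and -1.91 in db/db + estrogen, and 3.97 and -2.96 in db/db + vehicle on day 7. On day 14 it was -3.95 and -2.89 in WT, 3.85 and 2.87 in db/db, -4.21 and 4.33 in db/db + estrogen, and -4.49 and -3.88 in db/db + vehicle. Its 6 high arrays were those of Myh7, and no array lay between -1.91 and 0.96. Over the 16 arrays, which share 1 scaling and fall into high and low ones, the Pearson r of Myh7 was 0.99 with Myl3 and 0.95 with Myl2.

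The troponins of the slow thin filament varied less, and their arrays formed a continuous range. Tnnt1, which ties the troponin complex to tropomyosin, was 1.43 and 3.08 in WT, 4.83 and 3.13 in db/db, 2.98 and 2.65 in db/db + estrogen, and 4.98 and 2.23 in db/db + vehicle on day 7. The levels of day 14 were 1.89 and 4.23 in WT, 5.56 and 4.90 in db/db, 2.62 and 5.82 in db/db + estrogen, and 3.17 and 3.46 in db/db + vehicle. The lowest and highest arrays differed 21.0-fold. Replicate 2 of WT on day 14, low for Myh7, was above replicate 2 of db/db on day 7, high for Myh7.

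Tnni1, the inhibitory subunit, was -0.17 and 1.15 in WT, 1.82 and -0.50 in db/db, 0.28 and -0.27 in db/db + estrogen, and 1.65 and -0.19 in db/db + vehicle on day 7. By day 14 it was -1.23 and 1.04 in WT, 2.23 and 1.04 in db/db, 0.24 and 2.80 in db/db + estrogen, and 0.83 and 0.77 in db/db + vehicle. Replicate 2 of db/db on day 7, high for Myh7, was the second lowest of all 16 for Tnni1, and replicate 2 of WT lay above it on both days. Its Pearson r with Myh7 was 0.71, below those of the myosin light chains and the other troponins.

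Tnnc1, the calcium-binding subunit that slow muscle shares with the heart, was -2.08 and -0.45 in WT, 1.55 and -0.88 in db/db, -0.79 and -0.56 in db/db + estrogen, and 1.56 and -1.0 in db/db + vehicle on day 7. Its day 14 levels were -3.17 and -0.20 in WT, 1.97 and 1.12 in db/db, -0.48 and 2.59 in db/db + estrogen, and -0.05 and 0.18 in db/db + vehicle. It followed Tnni1 (r = 0.93) and Tnnt1 (r = 0.94) more closely than Myh7 (r = 0.80) over the 16 arrays. Replicate 2 of db/db on day 7 again lay among the low arrays.

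Tpm3 gave 3 different pictures, according to the transcript a probe was designed for. Tpm3 is expressed in most cell types from an internal start, and in slow muscle as a longer sarcomeric form. The probe of NM_001253738 was the flattest of the 9: it lay between 5.52 and 6.37 on all 16 arrays, a 1.80-fold range, with the 2 WT arrays of day 7 lowest. The probe of NM_022314 was well above background on 6 arrays, the 6 on which Myh7 was high, and on none of the other 10.

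On day 7 the NM_022314 probe of Tpm3 was -0.09 and -2.88 in db/db and 0.18 on replicate 1 of db/db + vehicle, and on day 14 it was 0.30 and -0.61 in db/db and 0.68 on replicate 2 of db/db + estrogen. The other 10 arrays, from -9.88 to -7.09, give only a bound. Db/db was at least 34.5-fold above WT on day 7 and at least 149-fold above it on day 14, where the dim group's arrays were set to the lowest level measured as well above background on each array, or to the probe's own value if that was higher. Against db/db + vehicle on day 14, db/db was at least 154-fold higher.

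The Tpm3 probe of NM_001253740 took a middle course. It was -1.17 and -2.13 in WT, 1.59 and -0.64 in db/db, -2.05 and -2.35 in db/db + estrogen, and 1.89 and -2.24 in db/db + vehicle on day 7. On day 14 it was -2.66 and -1.59 in WT, 2.00 and 1.14 in db/db, -3.29 and 2.44 in db/db + estrogen, and -3.65 and -3.52 in db/db + vehicle. The 6 high arrays of Myh7 were its 6 highest, over a 68.0-fold range. Where 1 value per gene is needed below, the brightest probe stands for Tpm3, which is the flat one.

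The first comparison was of db/db with WT wounds, which asks what the diabetic strain does to the wound. On day 7 the mean log2 level of Myh7 was 3.37 ± 1.57 (SD, n = 2) in db/db and -2.82 ± 2.02 (n = 2) in WT, a difference of 6.19. The 7 genes were all higher in db/db, from 0.17 for Tnni1 to 6.19 for Myh7, with a median difference of 1.73 against -0.05 over all probes tested. For 5 of the 7 genes both db/db arrays lay above both WT arrays, which also held for 26.3% of all probes tested, while 31.9% lay the other way and none of the 7 did. Tnni1 and Tnnc1 overlapped, because replicate 2 of db/db was below replicate 2 of WT. Within slides the median difference was 3.63 on the slide of the first replicates and 0.42 on that of the second.

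On day 14 the mean level of Myh7 was 5.16 ± 0.69 in db/db and -4.24 ± 0.69 in WT (SD, n = 2 each), a difference of 9.40 or 677-fold. Myl2 differed by 8.83 and Myl3 by 6.78, and the troponins by 1.73 to 3.23. For 7 of 7 genes the groups did not overlap, against 25.5% of all probes higher in this way and 40.3% lower. For Tnni1 the separation was narrow, since replicate 2 of both groups had the same level at the 2 decimals given above. Tpm3, counted by its flat probe, differed least, by 0.19. The median difference was 3.23, and -0.12 over all probes tested. No slide held both groups on day 14, and a fit that took slide as a fixed term gave a median of 4.89. In that fit, here and below, the slide term of day 14 came only from the estrogen and vehicle pairs. It therefore cannot be told apart from the differences between their replicates, which were large for estrogen.

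**Figure D2:**
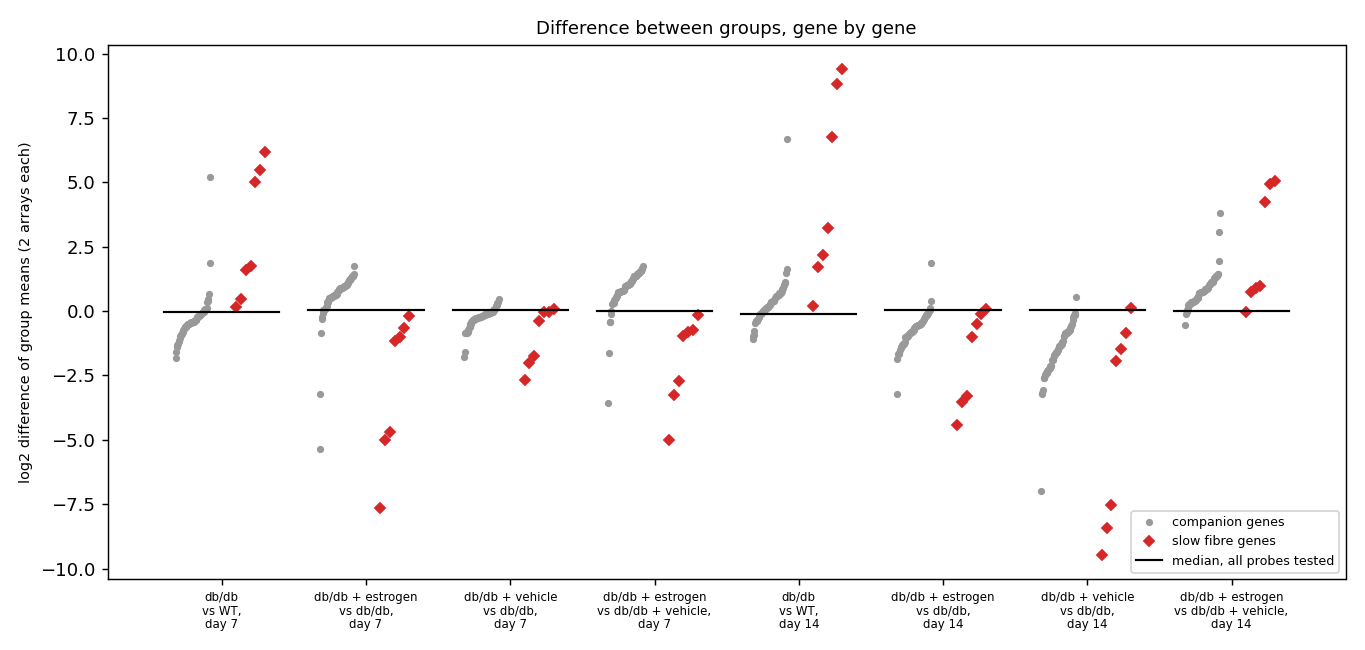
Difference in mean log2 level between 2 groups of 2 arrays (y axis) for each of 8 comparisons (x axis). Red diamonds are the 7 slow fibre genes, grey points are the companion muscle genes, both sorted by size, and the black line is the median of all probes tested. Slow fibre genes reach 9.40 above WT in db/db on day 14, where the companion genes have a median of 0.29.

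Estrogen-treated wounds were compared with untreated db/db wounds. On day 7 both estrogen arrays were below both db/db arrays for Myh7, with means of -4.29 ± 0.58 and 3.37 ± 1.57 (SD, n = 2 each), and the difference was -7.66. The differences were -4.71 for Myl2 and -5.00 for Myl3. The 7 genes were all lower, with a median of -1.17, and 5 of the 7 did not overlap, against 23.6% of all probes lower in this way and 29.9% higher. The median difference was -2.34 on 1 slide and -0.48 on the other. On day 14 none of the 7 genes separated the groups, where 27.5% of all probes did so as higher and 17.3% as lower, since 1 estrogen array was below both db/db arrays and the other above them for Myh7. The median was -1.02 with both estrogen arrays, -2.62 without replicate 2 and 0.97 without replicate 1.

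Vehicle-treated wounds were compared with untreated db/db wounds to follow the oil alone. On day 7 all 7 genes overlapped, where 22.4% of all probes were higher and 19.9% lower without overlap, and for Myh7 replicate 1 of the vehicle group was above both db/db arrays and replicate 2 below both. The median difference was -0.38, and it was -1.75 without replicate 1 of the vehicle group and 1.23 without its replicate 2. Within slides it was 0.14 and -0.90. On day 14 Myh7 was -4.30 ± 0.23 in db/db + vehicle against 5.16 ± 0.69 in db/db (SD, n = 2 each), a difference of -9.46. In all, 6 of the 7 genes were lower without overlap, against 27.3% of all probes, and the flat Tpm3 probe was higher, as were 38.3% of all probes. The median was -1.92, and -2.07 on the slide that held both groups.

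Estrogen was compared with its vehicle. On day 7 Myh7 differed by -4.99 on average, and both estrogen arrays were below both vehicle arrays, but replicate 2 of the vehicle group was 0.19 above replicate 2 of the estrogen group, on the same slide. Of the 7 genes 2, Myh7 and Tpm3, were lower without overlap, against 29.8% of all probes lower and 29% higher. Tpm3 was counted by its flat probe, which differed by only -0.14, and its NM_001253740 probe overlapped. The median difference was -0.96, and 0.20 without replicate 1 of the vehicle group. Within slides it was -2.35 and 0.41. On day 14 all 7 genes overlapped, where 19.3% of all probes were higher and 21.1% lower without overlap. The median was 0.99, with -0.03 on the slide of replicate 1 and 2.41 on the slide of replicate 2, and it was -0.07 without replicate 2 of the estrogen group.

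The other genes of the sarcomere were read on the same arrays from lists of other slow genes, fast fibre genes and genes that all fibres share. Of the 59 genes listed, 58 had a probe and 57 were tested in each comparison by limma across all probes. Fast and shared genes were well above background on every array, 19 of 19 and 28 of 28, so skeletal muscle RNA was measured in all 16 wounds. The summed fast fibre signal, in multiples of the 75th percentile, was 151 to 1395, and its highest and lowest arrays were the 2 replicates of db/db + estrogen on day 14. Myh7 was therefore low on 10 arrays on which other muscle genes were measured.

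The db/db + estrogen arrays of day 7 show this most plainly. Their summed fast fibre signal was 1015 and 985, above the 788 and 398 of db/db on that day, while their Myh7 level was -4.70 and -3.88 against 4.48 and 2.26. Of the 19 fast genes, 17 had a higher mean with estrogen than in db/db and 2 a lower one. The fast myosin heavy chain Myh4 was lower by the most (-3.22), in the direction of Myh7. Acta1, the skeletal muscle actin, was 7.39 and 7.37 on these estrogen arrays and 6.48 and 5.55 on the db/db arrays. On day 14 fast and slow genes moved the same way within the estrogen group. Ckm, the muscle creatine kinase, was -0.23 on replicate 1 and 4.80 on replicate 2, as Myh7 was -4.37 and 5.84.

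**Figure D3:**
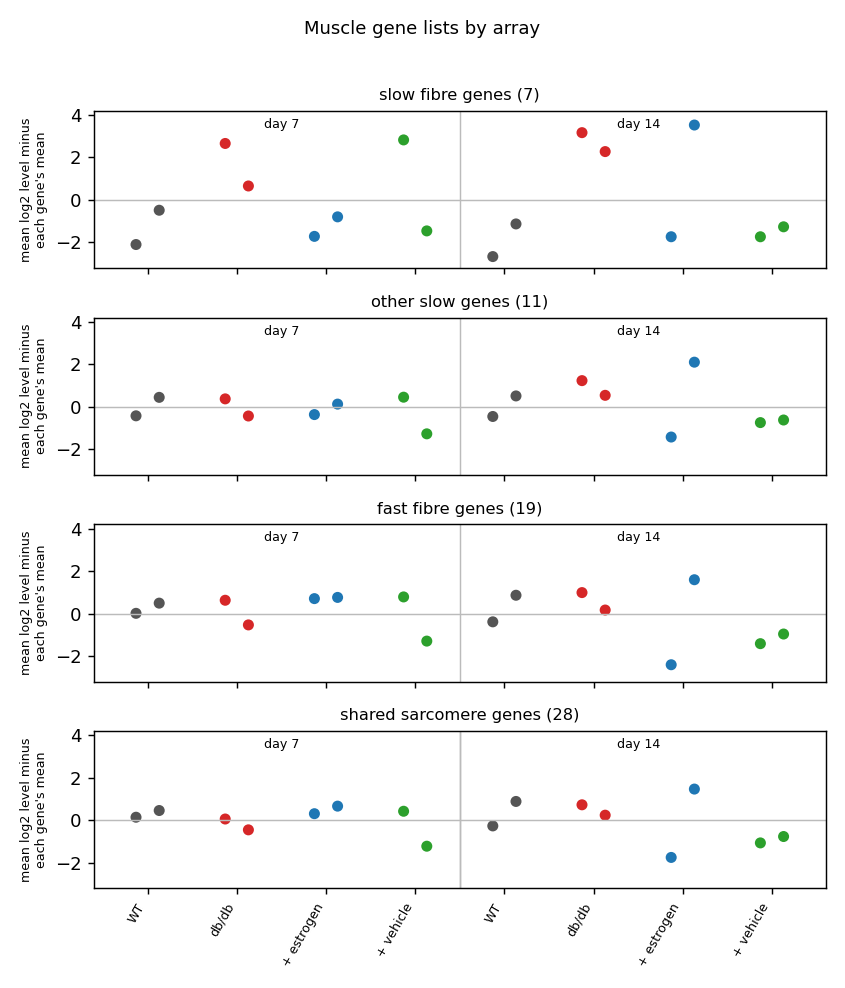
Mean over the genes of a list of the log2 level minus that gene's mean over 16 arrays (y axis), for the 7 slow fibre genes and 3 lists of other muscle genes. Each point is 1 array, grouped by treatment (x axis) and labelled day. Slow fibre genes range from -2.67 to 3.52, and the db/db + estrogen arrays of day 14 hold the lowest and the highest point of the fast and the shared list.

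Few companion genes passed the test, an unadjusted p below 0.05 by limma with a fold above 2. The share of all probes that passed was computed only for the fit over all 16 arrays without a slide term. Counts from altered fits, here and below, therefore have no share to be read against. In db/db against WT on day 7, 0 companion genes were higher and 2 of 57 lower, where 14.2% of all probes passed. They were Csrp3, the muscle LIM protein (log2 difference -1.81, SE 0.59, adjusted p = 0.0657 by limma with Benjamini-Hochberg), and Xirp2, an actin-binding repeat protein (-1.61, SE 0.70, adjusted p = 0.147). The companions' median was -0.41, opposite in sign to the 1.73 of the slow fibre genes. For the 10 other slow genes tested, taken alone, it was -0.36, with 2 positive and 8 negative. Their median on day 14 was 0.46, with 7 positive and 3 negative. On day 14, 1 of 57 passed, Myh7b, a slow-tonic myosin heavy chain (6.68, SE 2.64, adjusted p = 0.0973 by limma), where 18.1% of all probes passed. That call was lost without any 1 of the 4 arrays, and 13 passed in a fit with slide as a fixed term.

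Estrogen against db/db gave 0 of 57 companions on both days, with no companion at an unadjusted p below 0.05 by limma either. The share of all probes that passed was 10% on day 7 and 4% on day 14. On day 7 the companions' median was 0.68, against -1.17 for the slow fibre genes, and on 31 of 57 both estrogen arrays were above both db/db arrays, against 29.9% of all probes. The 10 other slow genes tested had a median of 0.50 on day 7, with 8 positive and 2 negative. On day 14 it was -0.66, with 2 positive and 8 negative. On the day 14 slide that held replicate 1 of the estrogen group and both db/db arrays, the companions' median difference was -2.35. It was 0.13 over all probes, and the estrogen group was 1 array there. Leaving out the db/db + estrogen arrays of day 14, whose replicates differed most, gave 9 companions on day 7, of which 7 were higher.

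Vehicle against db/db gave 0 of 57 on day 7, where 4.94% of all probes passed and no companion had an unadjusted p below 0.05 by limma. On day 14, 6 of 57 were lower and 0 higher, where 7.67% of all probes passed, 2.26% as lower. They were Myh7b (-7.00, SE 2.64), Atp2a2, the slow and cardiac calcium pump (-2.14, SE 0.81), Mylk2, the skeletal myosin light chain kinase (-3.19, SE 1.38), Ryr1, the calcium release channel (-2.61, SE 1.04), Trim63, a muscle ubiquitin ligase (-2.47, SE 1.07), and Neb, the thin filament protein nebulin (-2.24, SE 0.91). On 49 of 57 companions both vehicle arrays were below both db/db arrays, against 27.3% of all probes. The lowest adjusted p among them was 0.196 by limma. The count was 29 once the db/db + estrogen arrays of day 14 were left out of the fit, 37 in a fit with slide as a fixed term, and 0 without any 1 of the 4 arrays.

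Estrogen against vehicle gave 1 of 57 higher on day 7, where 9.09% of all probes passed. It was Cryab, a small heat shock protein of muscle (1.57, SE 0.67, adjusted p = 0.205 by limma). On day 14 it gave 0 of 57, where 1.04% of all probes passed and no companion had an unadjusted p below 0.05 by limma. Within the slides of day 14 the companions' median difference was -0.77 for replicate 1 and 2.38 for replicate 2, with 1 array of each group on a slide. Over all probes it was 0.06 and 0.02. Companions with an adjusted p below 0.05 by limma numbered 0 in each of the 8 comparisons, where the share of all probes was 15.4%, 6.82%, 0.299% and 4.46% on day 7 and 21.5%, 0.156%, 0.424% and 0% on day 14, in the order in which the comparisons were taken. None of the 57 had an unadjusted p below 0.05 for a difference between the days, in any of the 4 contrasts.

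The myosin heavy chain family divides the same arrays in 2 ways. Myh7b was -7.84 and -5.51 in WT, -0.36 and -2.59 in db/db, -7.02 and -6.62 in db/db + estrogen, and 0.37 and -6.85 in db/db + vehicle on day 7. The levels of day 14 were -7.08 and -6.06 in WT, 0.68 and -0.47 in db/db, -7.44 and 1.24 in db/db + estrogen, and -7.12 and -6.66 in db/db + vehicle. The 6 high arrays were those of Myh7. Of the low arrays, 3 were not well above background.

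Myh6, the alpha myosin heavy chain of the heart and the nearest relative of Myh7, was -3.98 to -1.34 on those 6 arrays and -6.37 to -5.33 on the other 10. A probe designed for XM_003689292, which the RefSeq table does not name, was 2.83 to 6.37 and -5.75 to -0.76. Myh6 and Myh7 are very similar in sequence, and whether their probes share transcripts was not tested. Of the 9 genes of the heart list, 8 or 9 were well above background on 15 of the arrays and 7 on the remaining one. Tnni3, the cardiac troponin I, and Nppa, the atrial natriuretic peptide, were lower in db/db than in WT on day 14 (-2.37, SE 0.41, and -1.40, SE 0.24, adjusted p = 0.00444 and 0.0041 by limma), the opposite direction from Myh7. Where 8.49% of all probes were lower in db/db than in WT on day 7, 1 of the 8 heart genes tested was, the cardiac actin Actc1 (-2.26, SE 0.83, adjusted p = 0.0958 by limma).

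On day 7 Myl7, the atrial light chain, was not well above background in db/db + estrogen, and was at least 4.22-fold lower there than in db/db and at least 7.14-fold lower than with vehicle (adjusted p = 0.0528 and 0.0344 by limma). Nppb, the B-type natriuretic peptide, was also lower with estrogen than in db/db (-2.20, SE 0.84, adjusted p = 0.163). With vehicle on day 14, Nppb was higher than in db/db (2.02, SE 0.84, adjusted p = 0.232) and Myh6 lower (-3.86, SE 1.51, adjusted p = 0.209). Heart genes other than Myh6 thus moved with Myh7 in some comparisons and against it in others.

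**Figure D4:**
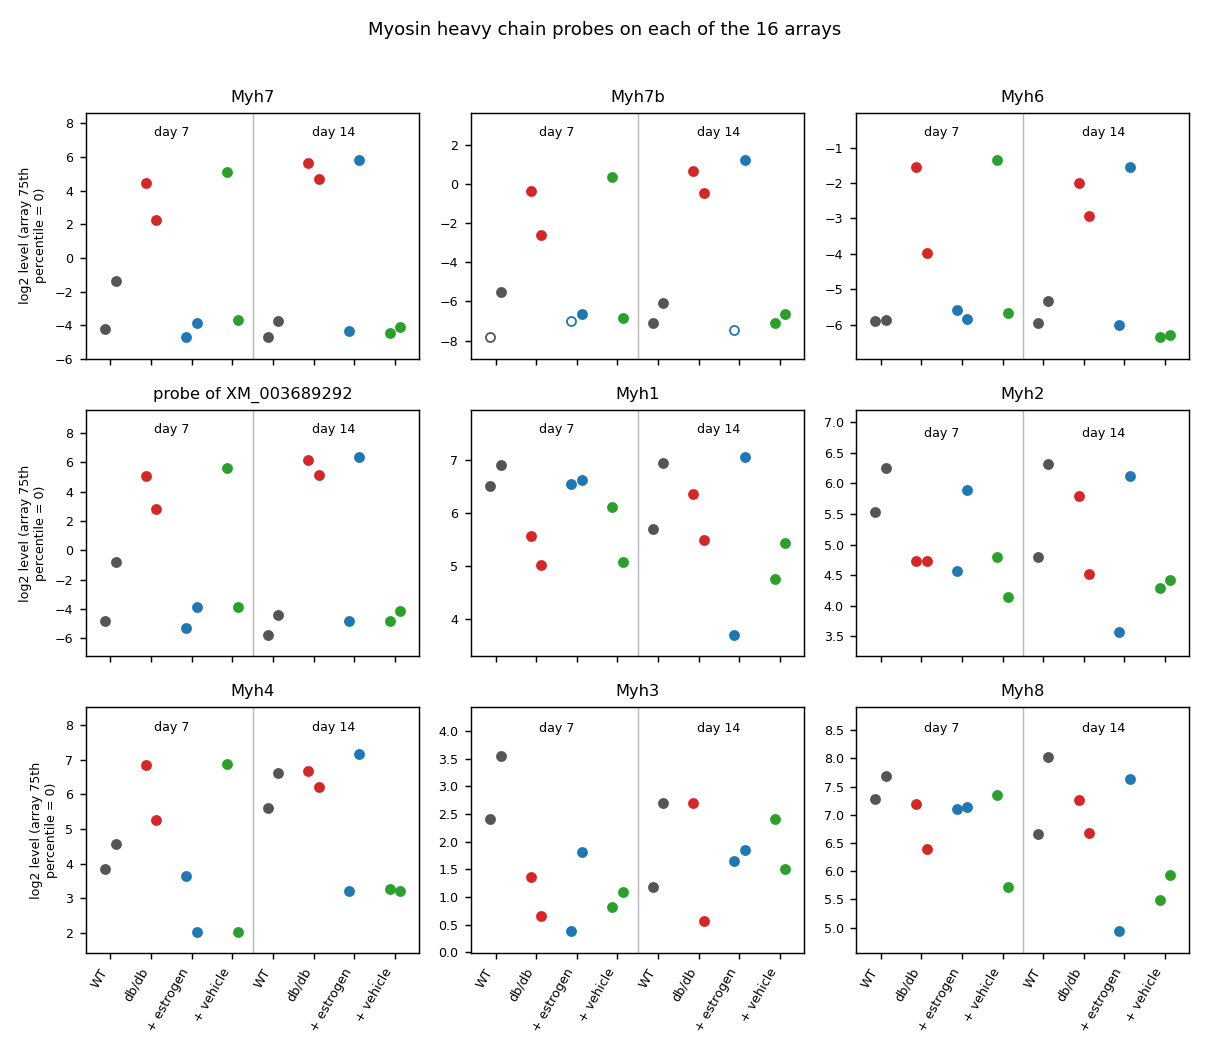
Log2 level of 9 myosin heavy chain probes on each of the 16 arrays, relative to the array's 75th percentile (y axes differ between panels). Each point is 1 array, grouped by treatment (x axis) and labelled day, and open points are not well above background. Myh7, Myh7b, Myh6 and the XM_003689292 probe share 6 high arrays, and Myh1, Myh2 and Myh8 do not.

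The fast and developmental chains took other courses. Myh1 and Myh2, the IIx and IIa chains of adult fast fibres, ranged over 10.2-fold and 6.66-fold, and Myh8, the perinatal chain, over 8.49-fold, all with replicate 1 of db/db + estrogen on day 14 as the lowest array. Myh3, the embryonic chain of regenerating fibres, ranged over 9.01-fold, with a log2 level of 2.41 and 3.55 in WT against 1.36 and 0.65 in db/db on day 7. That difference passed the test (-1.97, SE 0.77, adjusted p = 0.110 by limma). Myh4, the fastest IIb chain, was 6.84 and 5.27 in db/db, 6.88 and 2.02 in db/db + vehicle, and 3.65 and 2.03 in db/db + estrogen on day 7.

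Myh4 thus shared its highest arrays with Myh7 in the 3 db/db groups, but not in WT of day 14, where Myh7 was low. By day 14 it was 5.60 and 6.61 in WT, 6.69 and 6.23 in db/db, 3.22 and 7.16 in db/db + estrogen, and 3.26 and 3.20 in db/db + vehicle. Mb, the oxygen-binding myoglobin of oxidative fibres, and the fast fibre genes Atp2a1 (calcium pump) and Actn3 (alpha-actinin-3) ranged over 14.2-fold, 35.5-fold and 15.6-fold, and the lowest array of each was 1 of those low for Myh7. Mb was 4.32 and 5.38 in WT and 4.34 and 3.89 in db/db on day 7.

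Genes of fibre formation and fibre type were followed as well. In db/db against WT on day 7, 2 of 12 myogenic genes tested passed as lower, where 8.49% of all probes did: Myog, a muscle differentiation factor (-1.21, SE 0.36, adjusted p = 0.0491 by limma), and Myh3. Myog was also lower in db/db + vehicle than in db/db on day 7 (-1.34, SE 0.36, adjusted p = 0.145) and on day 14 (-1.20, SE 0.36, adjusted p = 0.133). Myod1, another differentiation factor, and Chrna1, a subunit of the muscle acetylcholine receptor, were lower with vehicle on day 14 too (-1.47, SE 0.47, adjusted p = 0.147, and -1.78, SE 0.67, adjusted p = 0.196). On day 7 Myod1 was lower with vehicle by less (-1.05, SE 0.47, adjusted p = 0.330).

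Among the fibre type regulators, Eya1, a transcriptional cofactor active in developing muscle, was higher in db/db than in WT on day 7 (2.19, SE 0.42, adjusted p = 0.00885 by limma). It was lower with estrogen than without treatment (-2.05, SE 0.42, adjusted p = 0.0190) or with vehicle (-1.90, SE 0.42, adjusted p = 0.0381). It was the only regulator with an adjusted p below 0.05 in any of the 8 comparisons. Its Pearson r with the mean of the slow fibre genes over the 16 arrays was 0.50, at rank 1251 of 17505 genes. Ppargc1a, a coactivator of oxidative metabolism, and Vgll2, a muscle cofactor of TEAD factors, were lower in db/db + vehicle than in db/db on day 14 (-1.93, SE 0.72, adjusted p = 0.196, and -2.52, SE 1.12, adjusted p = 0.257). Prox1, a factor of slow fibres and of lymphatic endothelium, was higher with estrogen than in db/db on day 7 (1.51, SE 0.52, adjusted p = 0.125), where 1 of the 2 db/db arrays was not well above background, and at least 1.96-fold higher than with vehicle, where it was not well above background (adjusted p = 0.0637 by limma).

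Likeness to the mean of the 7 genes was ranked over the 16 arrays among 17505 other genes well above background on at least 4 arrays. The 10 nearest by Pearson r were Myh7b (0.99), Myh6 (0.96), 1500012K07Rik (0.96), Eif1 (0.95), Mss51 (0.95), Lrrn4 (0.94), Upk3b (0.94), Upk1b (0.93), Atp2a2 (0.91) and Sobp (0.91). The arrays fall into high and low ones, so r mainly says that a gene has the same high arrays. Atp2a2 was already among the companions, and Mss51 encodes a skeletal muscle protein. Eif1, a translation initiation factor, ranged over only 1.74-fold.

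Upk3b, Upk1b and Lrrn4 are known as markers of mesothelium, the lining of the body cavities, and Upk1b also of bladder epithelium. Each was well above background on 6 arrays, the 6 on which Myh7 was high. These genes were picked by their r over these same arrays, so the shared high arrays come with that choice and are no separate result. Upk3b was -3.34 and -3.60 in db/db and -1.95 on replicate 1 of db/db + vehicle on day 7, and -3.21 and -4.19 in db/db and -3.41 on replicate 2 of db/db + estrogen on day 14. The other 10 arrays lay between -9.85 and -8.80.

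**Figure D5:**
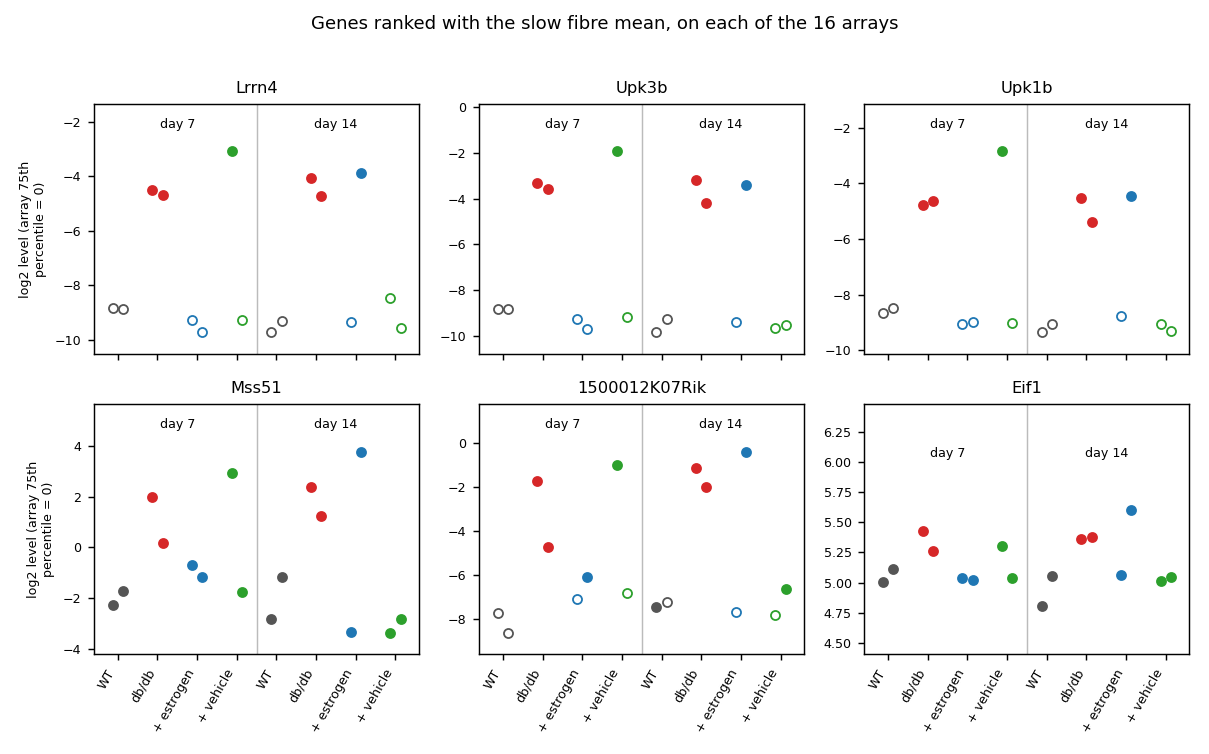
Log2 level on each of the 16 arrays, relative to the array's 75th percentile (y axes differ between panels), of 6 of the 10 genes whose levels were most like the mean of the slow fibre genes. Each point is 1 array, grouped by treatment (x axis) and labelled day, and open points are not well above background. Lrrn4, Upk3b and Upk1b are well above background on the 6 arrays that are high for Myh7 and on none of the other 10. The choice of genes by likeness over these arrays favours this.

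A list of 9 mesothelial markers was then read, chosen after this ranking was seen (Msln, Upk3b, Upk1b, Lrrn4, Wt1, Muc16, Gpm6a, Krt19 and Bnc1). Muc16 had no probe, and Upk3b, Upk1b and Lrrn4 had prompted the list. Of the 5 other markers, 5 were well above background on the 6 arrays that were high for Myh7, and 4 or 5 were on the other 10, so detection of these did not divide the arrays. Wt1, a transcription factor of mesothelium, was -3.08 to -1.93 on the 6 arrays and -9.54 to -4.72 on the other 10, without overlap. Msln, the surface protein mesothelin, overlapped, with 0.83 to 2.74 on the 6 and -1.95 to 1.61 on the 10. The r with the mean of the slow fibre genes was 0.77 for Wt1 and Msln, 0.78 for Krt19 and 0.85 for Gpm6a. Bnc1, a factor that keratinocytes also express, went the other way with an r of -0.65, at -3.04 to -1.37 on the 6 arrays and -2.14 to -0.92 on the 10. The part of this tissue in the level of the slow fibre genes was not tested.

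Among the remaining cell type lists, none had these 6 arrays as its 6 highest or 6 lowest. The neutrophil list, read as the mean of its genes' centred log2 levels, was 4.37 and 3.56 in db/db on day 7, the 2 highest of the 16 arrays, against -1.37 and -0.92 in WT and -3.04 and -3.03 in db/db + estrogen, where Myh7 was low. Of its 6 genes, 4 were higher in db/db than in WT and 6 were lower with estrogen than in db/db on day 7, with an adjusted p below 0.05 by limma. Of all probes, 15.4% and 6.82% passed that threshold in these comparisons, in either direction. It was -0.38 on replicate 1 of db/db + vehicle, which was high for Myh7, and 0.73 on replicate 2, which was low. Its day 14 levels were -0.61 on the estrogen array that was high for Myh7 and 0.16 on the low one. The macrophage list was 0.70 and 0.91 in db/db against -0.41 and -1.34 in WT on day 7, and the 4 WT arrays were the 4 lowest of the 16. Of its 5 genes, 4 were higher in db/db than in WT on day 7, with an adjusted p below 0.05 by limma, against 15.4% of all probes in either direction. In the split groups it was 0.34 and 0.17 on the high and low vehicle array of day 7, and 0.23 and 0.32 on the high and low estrogen array of day 14.

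Keratinocyte genes were well above background on every array, 8 of 8, and their centred mean was -1.14 to 0.14 on the 6 arrays that were high for Myh7 and -0.90 to 0.87 on the other 10. Their r with the mean of the slow fibre genes ran from -0.81 for Trp63, the epidermal stem cell factor, to -0.40 for Krt14. Fibroblast, adipocyte and endothelial genes were well above background on all 16 arrays too, 7 of 7, 8 of 8 and 5 of 5. Brown adipocyte genes had a summed signal of 11.02 on the low and 56.6 on the high estrogen array of day 14, and 29.8 on the low and 35.0 on the high vehicle array of day 7. The genes of this list did not move together. Their r with the mean of the slow fibre genes was 0.63 for Cox8b, 0.54 for Cox7a1 and 0.33 for Ucp1. It was -0.33 for Dio2, -0.58 for Elovl3 and -0.59 for Cidea, so the sum does not stand for the list. The part of these cells in the levels of the slow fibre genes was not tested.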

How the data were processed

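RNA of 16 wound homogenates was hybridised to Agilent 4x44K one-colour mouse arrays, 2 arrays in each of 8 groups. Per the labels and the file headers, the authors scanned the arrays and extracted them with Agilent Feature Extraction 11.0.1.1, and the deposited scanner files hold intensity values, background-subtracted, with 44397 spots an array, of which 43020 were not controls. The deposited value table holds ratios, each spot's signal divided by the authors by the array's 75th percentile, on a linear scale. After removal of each array's median shift at least 99.44% of its 34643 probes lay within 0.1% of the scanner values used here, and it served as an alternative. The mouse reference was the RefSeq table of GRCm38.p6. The scanner files' gene positions are of another build and were not used.

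Processed intensities were log2-transformed and the 75th percentile of each array was subtracted, control and outlier spots were left out and spots of a probe averaged. Probes were named by their transcript identifier, and a gene with several probes was represented by its brightest. Companion genes were tested with limma 3.58.1 in R 4.3.3 over all 8 groups (8 residual degrees of freedom), on probes for which both arrays of 1 or both groups compared were well above background, with Benjamini-Hochberg adjustment over all of them, and called at an unadjusted p below 0.05 and a fold above 2. On simulated arrays with independent noise and no detection filter, limma recovered the direction of most known changes. Replicates as split as those of the muscle genes here were not simulated. An exact permutation test of 2 against 2 arrays cannot go below p = 0.333 and was not used. The number of arrays limits the precision.

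The 7 genes and all gene lists were chosen with earlier results of these data known. Named were all probes of the 7 genes, the 3 largest called genes of each muscle, heart and regulator list in each comparison, 13 muscle genes whatever their values, and the 10 genes most like the 7. The same rule would name genes of the lists of other cell types, which were instead read as sums, centred means, ranges of r and counts of genes passing. Alternatives were normexp background correction, quantile normalization, the filter, a floor, the value table, the 4 arrays compared alone, slide and replicate as blocks, averaged probes, another call rule and leaving out single arrays.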

Additional observations from a re-analysis of the deposited data

How the results depend on the processing

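The count of companion genes called (2, 0, 0 and 1 on day 7 and 1, 0, 6 and 0 on day 14, for db/db against WT, estrogen against db/db, vehicle against db/db and estrogen against vehicle) depended on which arrays set the spread and on the slide. With only the 4 arrays compared it was 9, 11 and 7 in the first, second and last comparison of day 7, and 2 and 35 for db/db against WT and vehicle against db/db on day 14. With the db/db + estrogen arrays of day 14 left out, chosen after seeing the data, these were 7, 9, 8, 2 and 29, and without the db/db + vehicle arrays of day 7 estrogen against db/db gave 2 on day 7. With slide as a fixed block the count was 3 for estrogen against db/db on day 7, and 13, 10 and 37 in the first 3 comparisons of day 14. On day 14 the slide block was set only by the estrogen and vehicle pairs, so it also holds the differences between their replicates. Normexp gave 1 for estrogen against db/db on day 7, and 2 and 11 for db/db against WT and vehicle against db/db on day 14. Averaged probes gave 2 for db/db against WT on day 14, no filter gave 1 for estrogen against vehicle on day 14, and an adjusted p below 0.05 gave 0 where the count had been above 0. Leaving out 1 array, the lone array of its group being assumed to vary like the other groups, gave, in the same order, 0 to 1, 0 to 0, 0 to 1 and 0 to 3 on day 7, and 0 to 0, 0 to 49, 0 to 0 and 0 to 52 on day 14. The median difference of the 7 genes was -3.12 for estrogen against db/db on day 7 and -4.30 for vehicle against db/db on day 14 with averaged probes, and 4.89 and -2.79 for db/db against WT and vehicle against db/db on day 14 with the slide block. Leaving out 1 array gave 0.88 to 2.82, -2.23 to -0.32, -1.75 to 1.23 and -2.24 to 0.20 on day 7, and 1.75 to 4.72, -2.62 to 0.97, -2.25 to -1.59 and -0.07 to 2.52 on day 14. The cause of these shifts was not tested. The share of all probes called was not computed for the altered settings. Same-numbered arrays deviated from their group means with r between -0.37 and 0.33, so the numbers were not taken as pairs, and with the replicate number as a block the counts were again 2, 0, 0, 1, 1, 0, 6 and 0. Signal over background limits the NM_022314 probe of Tpm3, which was measured on 6 arrays.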
